A study of Mus musculus with 4 samples.

Results

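Toll-like receptors (TLRs) were examined by RNA sequencing of LSK cells (Lin-Sca-1+c-Kit+), a fraction of mouse fetal liver cells enriched for hematopoietic stem cells. The members were the rows of the authors' gene table named *Tlr1* to *Tlr9* and *Tlr13*, which made 10 of 39186 genes, and all 10 passed the filter on low values. Libraries were made from 2 *Pich*-KO and 2 *Pich*-WT samples of strain C57BL/6, and the design compared *Pich*-KO with *Pich*-WT LSK cells. *Pich*-KO embryos carry a small TALEN-made deletion near the start of *Pich*, an X-linked gene, in every cell, and *Pich*-WT embryos carry no such deletion. The labels give no further treatment, and nothing in them says whether the 2 samples of a group came from separate embryos, so the p-values measure only the spread between these samples, which in *Pich*-KO may be technical. Per the study's methods the lineage antibodies used on fetal liver cells were directed against CD4, CD8, Gr-1, B220 and Ter119.

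TLRs are membrane receptors of innate immunity that recognise conserved microbial molecules. Those at the cell surface bind lipopeptides, lipopolysaccharide or flagellin, and those in endosomes bind nucleic acids. Signals pass through the adaptors MyD88 and TRIF to NF-kB and interferon regulatory factors, and TLRs are expressed by macrophages and dendritic cells as well as by hematopoietic stem and progenitor cells.

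The libraries held 14703215 to 20933919 reads on genes. The PICH gene, listed as *Ercc6l*, had normalized counts of 1142 and 1232 in *Pich*-KO against 772 and 661 in *Pich*-WT. Transcripts of the deleted allele are counted, so this level does not check the genotype labels. *Pich*-WT sample 2 stood apart, with 0 reads on 4 Y-linked genes that held 1607 to 2848 reads in each other sample, so the *Pich*-WT samples were not repeats of the same material. *Tlr7*, *Tlr8* and *Tlr13* lie on chromosome X, and their normalized counts in *Pich*-WT sample 2 were 0.879, 1.03 and 0.875 times those in *Pich*-WT sample 1. All values below are normalized counts, which are reads on a gene divided by 1 size factor per sample, unless RPKM (reads per kilobase of gene length, scaled to the reads on genes in the library) is named.

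In *Pich*-KO LSK cells 8 of the 10 TLR genes were lower than in *Pich*-WT and 0 were higher, at an adjusted p below 0.05 by limma with Benjamini-Hochberg adjustment over 32428 genes. The genes that fell were *Tlr1*, *Tlr2*, *Tlr3*, *Tlr4*, *Tlr5*, *Tlr6*, *Tlr8* and *Tlr13*. *Tlr7* and *Tlr9*, endosomal receptors of single-stranded RNA and of CpG DNA, did not pass. Among all genes tested 9.6% were called lower and 7.58% higher, and among genes with a mean of at least 10 normalized counts, which all TLRs reach, 18.7% were called lower. The median log2 fold change (*Pich*-KO minus *Pich*-WT) was -2.20 over the 10 TLRs and 0.02 over all genes tested. edgeR with TMM scaling on the recovered reads called the same 8 TLRs lower, against 20.7% of its 16608 genes.

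The smallest two-sided p that an exact permutation test can give with 2 samples a group is 0.333, so the calls depend on the variance estimate that limma borrows from all genes. Without *Pich*-KO sample 1, 5 TLRs were called lower, and without *Pich*-KO sample 2, *Pich*-WT sample 1 or *Pich*-WT sample 2, 0 were, with the log2 fold changes of the 8 genes negative each time. Without *Pich*-WT sample 2, the library with no Y-linked reads, they ran from -2.89 for *Tlr13* to -1.51 for *Tlr2*. A limma fit without a mean-variance trend also called 0.

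**Figure D1:**
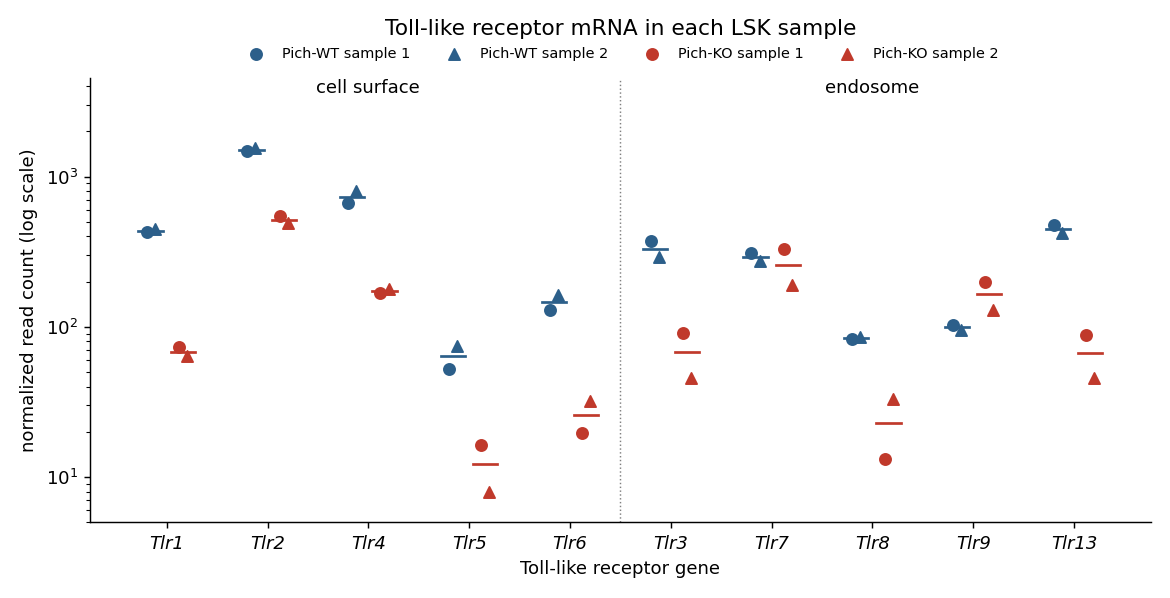
Normalized read counts (log axis) of the 10 TLR genes in each of the 4 LSK samples, with circles for sample 1, triangles for sample 2 and horizontal lines at group means. *Pich*-KO lies below *Pich*-WT in both samples for 8 genes, overlaps it for *Tlr7* and lies above it for *Tlr9*.

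The surface receptors were lower throughout. *Tlr2*, which pairs with *Tlr1* or *Tlr6* to bind bacterial lipopeptides, was the most abundant of the 10. *Tlr2* (chromosome 3, 83836272 to 83841767 on GRCm38, minus strand) had normalized counts of 548 and 488 in *Pich*-KO against 1475 and 1551 in *Pich*-WT. Both *Pich*-KO samples lay well below both *Pich*-WT samples, and the log2 fold change was -1.55 (SE 0.13, limma adjusted p = 0.000237), the smallest fall among the 8. Its partner *Tlr1* (chromosome 5, 64924679 to 64933563, minus strand) had 73.1 and 63.7 in *Pich*-KO against 426 and 449 in *Pich*-WT, with a log2 fold change of -2.66 (SE 0.21, limma adjusted p = 0.000155). Its other partner *Tlr6* (chromosome 5, 64952031 to 64960097, minus strand) had 19.6 and 31.8 against 130 and 163, with a log2 fold change of -2.49 (SE 0.34, limma adjusted p = 0.00188). In neither partner did the groups overlap. Per length, *Tlr2* RPKM was 8.32 and 8.50 times that of *Tlr1* in *Pich*-KO against 3.84 and 3.83 times in *Pich*-WT. The ratio of *Tlr2* to *Tlr6* varied more within a group, at 34.5 and 18.9 in *Pich*-KO against 14.1 and 11.8 in *Pich*-WT. In *Pich*-KO *Tlr1* rested on 67 and 56 reads and *Tlr6* on 18 and 28.

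*Tlr1* and *Tlr6* are neighbouring genes with similar coding sequences, and reads from their shared stretch could have been split between them in the authors' counting. Their longest identical coding stretch in GENCODE M21 transcripts is 229 bases, and 19.4% of the 50-base windows of the *Tlr1* coding sequence also occur in that of *Tlr6*. Among the other pairs of the 45 formed by the 10 TLRs no shared stretch exceeded 16 bases. The stretch is printed because *Tlr1* and *Tlr6* cannot be told apart within it. It lies at chr5:64925537-64925765 in *Tlr1* and chr5:64953828-64954056 in *Tlr6* (GRCm38, minus strand, coding exon), with no base in capitals:
*Tlr1* and *Tlr6* shared coding stretch: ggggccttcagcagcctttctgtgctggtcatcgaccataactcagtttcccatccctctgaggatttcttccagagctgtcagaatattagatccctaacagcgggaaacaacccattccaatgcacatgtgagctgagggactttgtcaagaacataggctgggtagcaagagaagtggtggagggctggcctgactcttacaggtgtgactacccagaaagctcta

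*Tlr4*, the lipopolysaccharide receptor (chromosome 4, 66827584 to 66930284, plus strand), had normalized counts of 167 and 180 in *Pich*-KO against 662 and 801 in *Pich*-WT. The *Pich*-KO samples were close together and below both *Pich*-WT samples, with a log2 fold change of -2.07 (SE 0.18, limma adjusted p = 0.000236). *Tlr5*, the flagellin receptor (chromosome 1, 182954788 to 182976044, plus strand), was the least abundant of the 10, with 16.4 and 7.96 against 52.4 and 75.0. These values stand on 15 and 7 reads in *Pich*-KO, and the log2 fold change was -2.35 (SE 0.46, limma adjusted p = 0.0103). Summed over the 5 surface receptors, RPKM was 14.6 and 13.4 in *Pich*-KO against 47.8 and 54.8 in *Pich*-WT, and all 5 were called lower with a median log2 fold change of -2.35.

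Of the 5 endosomal receptors 3 were called lower, with a median log2 fold change of -1.96 over the 5 and a summed RPKM of 10.8 and 6.70 in *Pich*-KO against 19.0 and 17.4 in *Pich*-WT. *Tlr3*, a receptor of double-stranded RNA (chromosome 8, 45395665 to 45411080, minus strand), had normalized counts of 90.5 and 45.5 in *Pich*-KO against 370 and 290 in *Pich*-WT. Its log2 fold change was -2.33 (SE 0.34, limma adjusted p = 0.00247), with the *Pich*-KO samples below both *Pich*-WT samples but 1.99-fold apart. An antisense gene annotated within the *Tlr3* locus was not analysed here, and the library kit does not mark strand, so its reads could not be told from those of *Tlr3*. *Tlr13*, a receptor of bacterial ribosomal RNA (chromosome X, 106143204 to 106160493, plus strand), fell most among the 10, from 477.5 and 418 in *Pich*-WT to 88.3 and 45.5 in *Pich*-KO. The log2 fold change was -2.80 (SE 0.32, limma adjusted p = 0.000779). *Tlr8*, a receptor of RNA breakdown products (chromosome X, 167242696 to 167264329, minus strand), had 13.1 and 33.0 against 82.8 and 85.0, with a log2 fold change of -1.96 (SE 0.45, limma adjusted p = 0.0213). Without *Pich*-KO sample 1 the log2 fold change of *Tlr8* was -1.32, and without *Pich*-KO sample 2 it was -2.59. The *Pich*-KO values of *Tlr8* came from 12 and 29 reads, and the call was lost without a filter on the mean (limma adjusted p = 0.0645). Over the alternatives that keep all samples, the adjusted p of *Tlr8* ran from 0.00015 with a replicate block to 0.174 without a variance trend.

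*Tlr7* and *Tlr9* were the members not called. *Tlr7* (chromosome X, 167304929 to 167330558, minus strand) had normalized counts of 330 and 189 in *Pich*-KO against 312 and 274 in *Pich*-WT. The *Pich*-WT samples lay between the *Pich*-KO samples, and the log2 fold change was -0.23 (95% interval -0.86 to 0.41, limma adjusted p = 0.659). It was 0.18 without *Pich*-KO sample 2 and -0.63 without *Pich*-KO sample 1, so its sign depends on which *Pich*-KO sample is used. *Tlr9* (chromosome 9, 106222598 to 106226883, plus strand) had 199 and 130 in *Pich*-KO against 103 and 95 in *Pich*-WT. Both *Pich*-KO samples lay above both *Pich*-WT samples, the only TLR for which this was so, but the log2 fold change of 0.69 (95% interval 0.06 to 1.32) did not pass after adjustment (unadjusted p = 0.0357, limma adjusted p = 0.139). Over the alternatives that keep all samples its adjusted p ran from 0.0728 with a replicate block to 0.307 without a variance trend, and edgeR and DESeq2 did not call it either. The groups did not overlap for 9 of the 10 TLRs, against 56.1% of all genes tested. That share counts low genes, in which overlap is more frequent. Of 16280 genes averaging 10 normalized counts or more, as every TLR does, 6115 were lower in both *Pich*-KO samples, 5721 were higher in both and 4444 overlapped.

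**Figure D2:**
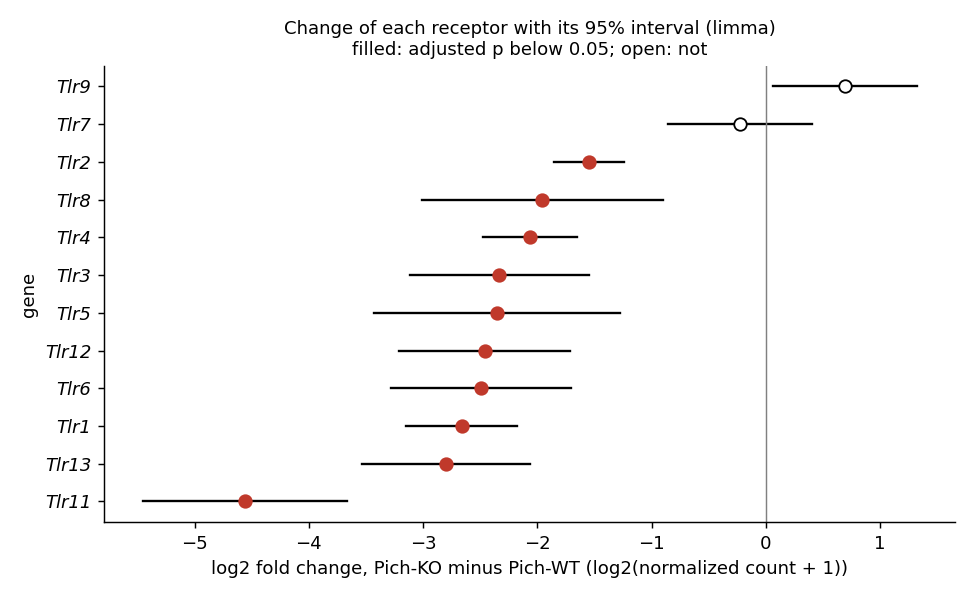
Log2 fold change (x axis, *Pich*-KO minus *Pich*-WT, on log2(normalized count + 1)) of the 10 TLRs and of *Tlr11* and *Tlr12* (y axis), with 95% limma intervals as lines and filled points for an adjusted p below 0.05. The filled points run from -1.55 for *Tlr2* to -4.56 for *Tlr11*, and the open points are *Tlr7* at -0.23 and *Tlr9* at 0.69.

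The remaining mouse TLR genes, *Tlr11* and *Tlr12*, endosomal receptors of protozoan profilin, were also lower. *Tlr11* had 4.36 and 4.55 normalized counts in *Pich*-KO, from 4 reads each, and 134 and 122 in *Pich*-WT, with a log2 fold change of -4.56 (SE 0.39, limma adjusted p = 0.000217). *Tlr12* had 171 and 87.5 in *Pich*-KO against 807 and 569 in *Pich*-WT, with a log2 fold change of -2.46 (SE 0.32, limma adjusted p = 0.00157). In neither gene did the groups overlap.

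The order of the TLRs by level differed between the groups. By mean RPKM the order in *Pich*-WT was *Tlr2* (31.5), *Tlr4* (8.27), *Tlr1* (8.20), *Tlr13* (6.51), *Tlr7* (4.49), *Tlr3* (3.96), *Tlr6* (2.47), *Tlr9* (1.78), *Tlr8* (1.47) and *Tlr5* (0.837). In this order *Tlr4* and *Tlr1* overlapped between samples, as did *Tlr7* and *Tlr3*. In *Pich*-KO the order was *Tlr2* (10.3), *Tlr7* (3.83), *Tlr9* (2.84), *Tlr4* (1.87), *Tlr1* (1.23), *Tlr13* (0.935), *Tlr3* (0.786), *Tlr6* (0.414), *Tlr8* (0.385) and *Tlr5* (0.153). Here *Tlr7* overlapped with *Tlr9*, *Tlr1* with *Tlr13*, *Tlr13* with *Tlr3*, and *Tlr6* with *Tlr8*. *Tlr2* ranked highest and *Tlr5* lowest in both groups, while *Tlr9* moved from rank 8 to rank 3.

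The summed RPKM of the 10 TLRs was 25.5 and 20.1 in *Pich*-KO against 66.8 and 72.2 in *Pich*-WT, so the *Pich*-KO mean was 32.8% of the *Pich*-WT mean. *Tlr2* made up 43.1% and 48.3% of this sum in *Pich*-KO against 44.8% and 45.8% in *Pich*-WT, a range in which the groups overlap. *Tlr7* and *Tlr9* together made up 32.7% and 24.9% in *Pich*-KO against 9.71% and 8.41% in *Pich*-WT, which did not overlap. The RPKM ratio of *Tlr9* to *Tlr13* was 2.78 and 3.53 in *Pich*-KO against 0.267 and 0.281 in *Pich*-WT. *Tlr7* and *Tlr9* were the members not called and *Tlr13* fell most, so the contrasts of these genes restate the values above. All these shares and ratios are given as descriptions and were not tested. *Tlr1*, *Tlr3*, *Tlr4*, *Tlr5*, *Tlr6* and *Tlr13* each had a lower share in both *Pich*-KO samples than in either *Pich*-WT sample.

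**Figure D3:**
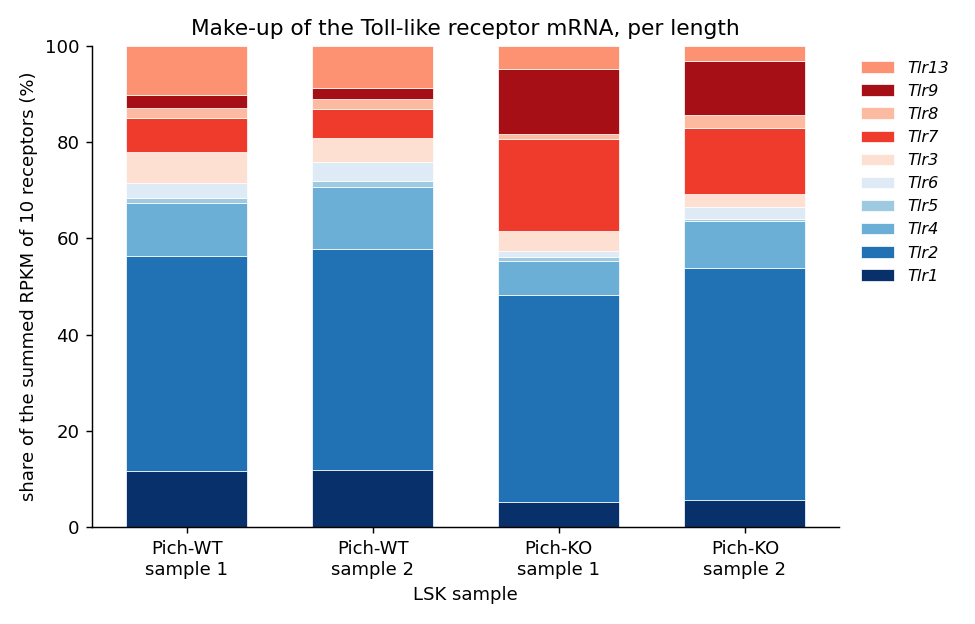
Share of each TLR in the summed RPKM of the 10 TLRs (y axis, percent) in each of the 4 LSK samples (x axis), with surface receptors in blue and endosomal receptors in red tones. *Tlr7* and *Tlr9* together take 32.7% and 24.9% in *Pich*-KO against 9.71% and 8.41% in *Pich*-WT, and *Tlr2* takes 43.1% to 48.3% in all samples.

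Promoter windows were available in the RefSeq table (GRCm38.p6, from 250 bases before to 50 bases after a start) for 8 of the 10 TLRs, in 10 windows. *Tlr4* and *Tlr7* had no entry. Windows were searched on both strands for GAGGAAG, a core bound by the myeloid factor PU.1, which was found in windows of 3 TLRs, namely *Tlr1*, *Tlr9* and *Tlr13*. It occurs in 13.6% of 32851 windows of all genes. An interferon regulatory factor motif, GAAANNGAA, was found in windows of *Tlr6* and *Tlr8* (8.56% of all windows), and the STAT motif TTCNNNGAA in windows of *Tlr1*, *Tlr6* and *Tlr8* (8.3% of all windows). A match describes letters only. The windows below show *Tlr9*, the TLR above *Pich*-WT in both *Pich*-KO samples, beside *Tlr13* and *Tlr1*, which fell most and hold the same letters, and *Tlr2*, the most abundant of the 10, which does not hold them. Capitals mark GAGGAAG or its reverse complement, the *Tlr9* window lies at chr9:106222348-106222647 (plus strand), *Tlr13* at chrX:106143025-106143324 (plus strand), *Tlr1* at chr5:64933509-64933808 (minus strand) and *Tlr2* at chr3:83841559-83841858 (minus strand), each written 5′ to 3′ on the gene's strand:
*Tlr9*: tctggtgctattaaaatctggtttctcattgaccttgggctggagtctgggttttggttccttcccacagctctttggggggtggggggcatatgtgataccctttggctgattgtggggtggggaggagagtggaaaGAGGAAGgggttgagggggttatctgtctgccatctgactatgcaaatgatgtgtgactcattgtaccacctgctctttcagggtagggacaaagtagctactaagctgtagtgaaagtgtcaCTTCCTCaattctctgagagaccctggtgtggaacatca
*Tlr13*: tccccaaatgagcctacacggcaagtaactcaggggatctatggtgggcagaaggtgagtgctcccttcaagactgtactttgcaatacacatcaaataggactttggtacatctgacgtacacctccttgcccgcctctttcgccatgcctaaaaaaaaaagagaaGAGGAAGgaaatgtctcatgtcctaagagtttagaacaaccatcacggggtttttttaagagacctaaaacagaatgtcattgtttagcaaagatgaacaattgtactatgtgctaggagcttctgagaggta
*Tlr1*: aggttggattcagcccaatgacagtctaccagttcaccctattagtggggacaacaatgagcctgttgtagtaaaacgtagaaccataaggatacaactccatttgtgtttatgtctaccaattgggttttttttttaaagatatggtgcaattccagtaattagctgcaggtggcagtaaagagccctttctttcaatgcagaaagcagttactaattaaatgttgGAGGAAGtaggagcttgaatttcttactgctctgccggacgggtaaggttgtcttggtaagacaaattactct
*Tlr2*: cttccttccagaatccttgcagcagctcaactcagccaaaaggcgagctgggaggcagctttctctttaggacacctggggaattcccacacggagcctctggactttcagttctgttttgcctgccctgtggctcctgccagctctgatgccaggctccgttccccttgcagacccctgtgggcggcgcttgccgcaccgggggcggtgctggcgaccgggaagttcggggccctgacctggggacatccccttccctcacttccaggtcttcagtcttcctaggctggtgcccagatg

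In *Tlr9* the letters stand at -112 to -106 and, on the other strand, at 11 to 17, counting the annotated start as 0. In *Tlr13* they stand at -83 to -77 and in *Tlr1* at -23 to -17. These letters thus occur in windows of a gene that was not called and of 2 genes that fell.

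Genes of TLR co-receptors and accessory proteins were lower in part, with 3 of 6 called lower, 0 higher and a median log2 fold change of -0.87. For this and the other gene lists, the shares over all genes tested by limma were 9.6% called lower and 7.58% higher. Among genes with a mean of at least 10, 18.7% were called lower and 2399 of 16280 higher. *Cd36*, a scavenger receptor that works with *Tlr2* and *Tlr6*, fell most, from 3632 and 2775 normalized counts in *Pich*-WT to 184 and 95.5 in *Pich*-KO (log2 fold change -4.57, limma adjusted p = 7.2e-05). *Cd14*, which hands lipopolysaccharide to *Tlr4*, had 96.0 and 182 against 516 and 519 (-1.96, limma adjusted p = 0.00278). *Ly96*, encoding the *Tlr4* partner MD-2, had 76.3 and 90.9 against 184 and 192 (-1.16, limma adjusted p = 0.011). *Tlr4*, *Cd14* and *Ly96* were thus each called lower. *Lbp* (-0.58), *Cd180* (-0.38) and *Ly86* (0.12) did not pass.

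Of 9 tested genes listed under endosomal TLR trafficking and processing, 5 were called lower and 0 higher, with a median log2 fold change of -0.65. *Unc93b1*, the chaperone that carries endosomal TLRs out of the endoplasmic reticulum, had 4519 and 4233 normalized counts in *Pich*-KO against 6941 and 6819 in *Pich*-WT (-0.65, limma adjusted p = 0.00136). The lysosomal proteases *Lgmn* (-3.21), *Ctsb* (-2.62), *Ctsl* (-2.49) and *Ctss* (-1.61) made up the rest of the called genes. The general TLR chaperones *Hsp90b1* (log2 fold change 0.19, limma adjusted p = 0.319) and *Cnpy3* (0.23, limma adjusted p = 0.204) did not pass, nor did *Slc15a4* (-0.03), a lysosomal transporter needed for *Tlr7* and *Tlr9* signalling, or *Nrros* (0.01).

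Of 20 adaptors and kinases downstream of TLRs, 2 were called higher and 1 lower, and the median log2 fold change was -0.05. The shares over all genes tested were 7.58% higher and 9.6% lower. Among genes with a mean of at least 10, which all 20 reach, 18.7% were called lower and 2399 of 16280 higher. *Myd88*, the adaptor of all TLRs but *Tlr3*, had 1916 and 1860 normalized counts in *Pich*-KO against 1621 and 1386 in *Pich*-WT, which did not pass (0.33, 95% interval 0.05 to 0.61, limma adjusted p = 0.11). *Tirap* (-0.60), *Ticam1* (-0.56, encoding TRIF) and *Ticam2* (0.49) did not pass. *Traf3* rose most, with 480 and 468 against 159 and 148 (1.62, limma adjusted p = 0.000669), followed by the ubiquitin ligase gene *Traf6* (1.21, limma adjusted p = 0.00169). *Irak2* fell (-1.08, limma adjusted p = 0.00448), while *Irak1* (-0.31) and *Irak4* (-0.09) did not pass.

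Of 11 inhibitors of TLR signalling, 5 were called lower and 0 higher, with a median of -0.57. *Nfkbia*, the NF-kB inhibitor and itself an NF-kB target, fell most (-1.22, limma adjusted p = 0.000337), and *Irak3*, encoding the kinase-dead IRAK-M, fell by 0.68 on the log2 scale (limma adjusted p = 0.0455). Of 20 primary response genes 7 were lower and 2 higher, with a median of -0.98. *Il1a* fell most (-5.27, limma adjusted p = 0.00491), from 321 and 479 normalized counts to 30.5 and 2.27, the latter from 2 reads. *Ptgs2*, encoding cyclooxygenase-2, rose most (3.06, limma adjusted p = 0.00305), with 122 and 152 against 9.38 and 25.0. *Tnf* had a log2 fold change of 0.05 (limma adjusted p = 0.903). Of 8 transcription factors downstream of TLRs, *Irf7*, *Rel* and *Jun* rose, *Rela*, *Nfkb1* and *Irf5* fell and 2 were not called. Their median was 0.04. This list was added after values were seen, so its counts are a description only.

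**Figure D4:**
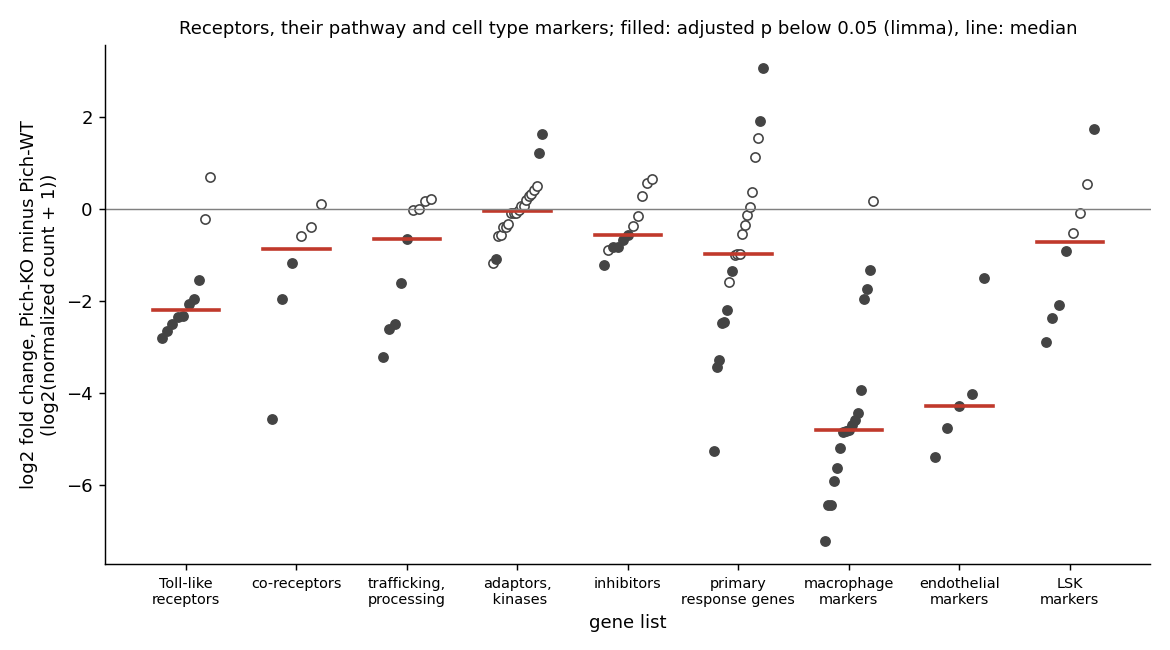
Log2 fold changes (y axis, *Pich*-KO minus *Pich*-WT, on log2(normalized count + 1)) of each tested gene in the TLR list, 5 pathway lists and 3 marker lists (x axis), with filled points for an adjusted p below 0.05 by limma and red lines at list medians. The TLR median is -2.20, that of adaptors and kinases -0.05 and that of macrophage markers -4.80.

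Markers of macrophages and endothelial cells were also lower, and markers of other cell types were mixed or not called. Of 17 macrophage markers 16 were called lower and 0 higher, with a median log2 fold change of -4.80, and *Fcgr1* (0.18) was the marker that did not pass. Their summed RPKM was 409 and 400 in *Pich*-KO against 2616 and 2721 in *Pich*-WT, a 6.60-fold difference of means against 3.05-fold for the TLRs. *Adgre1*, encoding F4/80, had 273 and 205 normalized counts in *Pich*-KO against 6617 and 6927 in *Pich*-WT, and *Csf1r*, the receptor of the macrophage growth factor, had 7268 and 6111 against 16306 and 17259. *Vsig4*, a marker of tissue macrophages, had 2 reads in *Pich*-KO sample 1 and 0 in sample 2, and was the only marker of the list at 0 in a sample. The other macrophage markers in order of log2 fold change were *Marco* (-7.22), *Cd5l* (-6.44), *Timd4* (-6.43), *Clec4f* (-5.91), *C1qa* (-5.65), *C1qc* (-5.19), *Mrc1* (-4.84), *C1qb* (-4.69), *Spic* (-4.59), *Mertk* (-4.44), *Cd163* (-3.94), *Cd68* (-1.96) and *Lyz2* (-1.74). The part of macrophage RNA in the results on TLRs and on pathway genes, lysosomal proteases included, was not tested. In bulk libraries fewer cells of a type and less RNA per cell cannot be told apart.

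All 5 endothelial markers were called lower, with a summed RPKM of 23.0 and 14.1 in *Pich*-KO against 365 and 255 in *Pich*-WT. Of 8 dendritic cell markers 3 were lower (*Clec9a*, *Itgax* and *Zbtb46*) and 1 higher (*Cox6a2*), with 7 of 8 log2 fold changes negative and a median of -1.24. Their summed RPKM was 20.7 and 16.3 in *Pich*-KO, of which *Cox6a2* made 14.0 and 13.5, against 28.1 and 19.6 in *Pich*-WT, of which it made 5.34 and 1.32. Of 10 monocyte and granulocyte markers *Mpo* and *Ly6c2* were higher and *Ccr2* lower, with 6 of 10 log2 fold changes negative and a median of -0.17. Their summed RPKM was 1159 and 2612 in *Pich*-KO, of which *Mpo* made 963 and 1581, against 582 and 655 in *Pich*-WT, of which it made 185 and 235. Of 5 B cell markers 0 were called by limma, with *Ms4a1* (-1.40) at an unadjusted p under 0.05, and they had a summed RPKM of 47.4 and 70.6 against 63.2 and 58.2. The part of these cells in the results on TLRs and pathway genes was not tested.

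The labelled cell type was checked against 8 LSK markers, all detected in every sample, with a summed RPKM of 350 and 247 in *Pich*-KO against 213 and 244 in *Pich*-WT. *Kit* had 4447 and 2772 normalized counts in *Pich*-KO against 2328 and 2513 in *Pich*-WT (log2 fold change 0.54, limma adjusted p = 0.114). *Ly6a*, encoding Sca-1, was higher (1.74, limma adjusted p = 0.000167). The stem cell genes *Procr* (-2.88), *Hlf* (-2.37), *Mecom* (-2.10) and *Slamf1* (-0.90) were lower, and *Flt3* (-0.53) and *Cd34* (-0.08) did not pass. The part of other cells, endothelial cells included, in these values was not tested.

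For the 3 of the 10 TLRs with the highest mean normalized count over all samples, an order that is not per length, the genes nearest in pattern were sought among 16279 genes with a mean of at least 10, by the Euclidean distance of log2 deviations over the 4 samples. For *Tlr2* they were *Ypel5*, *Anpep* and *Sfxn3*, with 64 genes within a distance of 0.2. For *Tlr4* they were *Trp53inp2*, *Rln3* and *Fam129a*, with 10 genes within that distance, and for *Tlr7* *Mir703*, *Tpm2* and *Zc4h2*, with 50. This likeness is over 4 samples and is given as a description.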

How the data were processed

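RNA of sorted fetal liver LSK cells was sequenced with a TruSeq RNA kit in 2 samples of each genotype. The authors deposited 1 table of 39186 genes, in which each value is a signal, the reads on a gene divided by 1 size factor per sample. The submitters' processing notes name Bowtie 0.12.2 and the builds mm8 and mm9 without a role. Gene coordinates equal those of GENCODE M21 (GRCm38) for 97.8% of 39163 genes found. Deposited fold changes and p-values of the authors were not used.

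Whole reads were recovered from the steps of the values for 100% of values (within 0.01 of a whole read). Groups were compared with limma 3.58.1 in R 4.3.3 on log2(value + 1), with a mean-variance trend, for genes with a mean of at least 1, and Benjamini-Hochberg adjustment. This scale understates changes of low genes. RPKM used the recovered reads and the gene length in the table. Alternatives were a pseudocount of 0.1, other filters and scalings, edgeR 4.0.16, DESeq2 1.42.0, a replicate block and leaving out each sample. Replicates differed beyond sampling noise (chi-square per degree of freedom 14.7 in *Pich*-KO and 8.18 in *Pich*-WT).

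The members and gene lists were chosen with earlier results of these data known. Genes named were all TLRs, fixed co-receptors, chaperones and adaptors, the called genes of each list with the largest rise and fall, and all macrophage and LSK markers. Other genes were named after their values were seen.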

Additional observations from a re-analysis of the deposited data

How the results depend on the processing

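The 8 TLRs called lower in the reported limma fit were also the ones called with a pseudocount of 0.1, a mean of at least 10, total-count scaling, edgeR with TMM or upper-quartile scaling, DESeq2 and the replicate block, and 7 of them without a filter on the mean, where *Tlr8* did not pass. In the limma fit without a variance trend 0 TLRs and 0 genes in either direction passed, with 8 TLRs and 7377 genes at an unadjusted p under 0.05. This changes only the prior variance. No TLR was called higher by any of these fits.

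Leaving out 1 sample leaves 1 in its group, which is assumed to vary like the other group. The TLRs called lower by limma then ranged from 0 to 5, genes called lower from 0 to 1193 and genes called higher from 0 to 548, with 6 to 9 TLRs at an unadjusted p under 0.05. The 5 remained without *Pich*-KO sample 1, where the highest adjusted p of the 8 was 0.0922, and it was 0.144, 0.348 and 0.35 without *Pich*-KO sample 2, *Pich*-WT sample 1 and *Pich*-WT sample 2. All 8 log2 fold changes stayed negative. *Tlr7* reversed to 0.18 without *Pich*-KO sample 2, in a range of -0.63 to 0.18. That of *Tlr9* ran from 0.39 to 1.00, and over the other alternatives from 0.63 to 0.76.

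The labels tie the replicate numbers to no shared litter or day. The difference between samples 1 and 2 in *Pich*-KO had a correlation of 0.0133 with that in *Pich*-WT across 10544 genes, a value across genes and not across samples. With the replicate block 8 TLRs were lower and 0 higher, with 3874 genes lower and 3122 higher.

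Among the pathway lists, over all alternatives the lower calls ran from 0 to 4 of co-receptors, 0 to 5 of trafficking genes, 0 to 4 of adaptors and kinases, 0 to 6 of inhibitors and 0 to 10 of primary response genes. Higher calls reached 4 of adaptors and kinases, 1 of inhibitors and 5 of primary response genes. Scaling moved the median log2 fold change of all genes by less than 0.1. *Tlr5*, *Tlr8* and *Tlr11* rest on few reads in *Pich*-KO, which limits their fold changes.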
